A study of Mus musculus with 2 samples.

Results

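The genes described here encode the calcium release unit of muscle and the proteins that build the dyad around it: the release channels Ryr1, Ryr2 and Ryr3, the junctophilins Jph1 and Jph2, the junctional anchors Trdn and Asph, and the luminal calcium binders Hrc, Casq1 and Casq2. They were chosen by symbol, and all 10 were found among 55536 annotated genes, of which 22028 are protein-coding. They were measured by total RNA-seq in heart tissue of 10 day old female B6CASTF1/J mice, which by the strain name are first-generation offspring of C57BL/6J and CAST/EiJ. There was 1 group of 2 libraries, biological replicates 1 and 2, each from 300 ng of RNA with ERCC spike-ins (synthetic RNAs added in known amounts). The labels name no treatment or engineered allele and give both animals under a single donor record, so the spread below is that between these 2 samples.

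A dyad is the place where the surface membrane, as a transverse tubule, lies close to the sarcoplasmic reticulum, the internal calcium store. Calcium that enters through the L-type channel opens ryanodine receptors in the reticulum, which release the stored calcium that makes the sarcomere contract. Junctophilins hold both membranes together, while triadin (from Trdn) and junctin (a product of Asph) link the receptor to calsequestrin, the protein that buffers calcium inside the store. Skeletal muscle uses other members of these families, mainly Ryr1, Jph1 and Casq1, than the heart.

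Both anchors are made in short and long forms, and the places where those forms part on mm10 (GENCODE M21) are shown because the levels of the forms are described below. Triadin is encoded on the plus strand of chr10:33080554-33476709. In the full-length transcript Trdn-201, exon 9 (chr10:33200163-33200222) has 60 bases and splices on to exon 10, while in the short transcript Trdn-202 the same exon is read on into what is an intron for Trdn-201 and soon reaches a stop codon (shown to chr10:33200257). Another short transcript, Trdn-208, does the same past the end of exon 8 (shown are chr10:33196096-33196172). Capitals mark the bases past the shared exon end, with the stop codon as the last 3. In both cases the first capitals are GT, the letters with which most introns begin.
Trdn-201, exon 9: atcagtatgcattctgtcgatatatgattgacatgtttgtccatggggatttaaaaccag
Trdn-202, exon 9 to the stop: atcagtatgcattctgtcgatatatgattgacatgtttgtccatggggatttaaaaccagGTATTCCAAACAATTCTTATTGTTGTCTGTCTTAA
Trdn-208, end of exon 8 to the stop: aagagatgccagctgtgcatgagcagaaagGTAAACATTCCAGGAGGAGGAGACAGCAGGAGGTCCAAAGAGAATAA

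Asph lies on the minus strand of chr4:9448069-9669344 and has a pair of main annotated starts, so its forms can differ at both ends. The full-length transcript Asph-202 has 24 exons and codes for aspartate beta-hydroxylase, an enzyme of the reticulum, with its catalytic part at the end. The short transcript Asph-206 has 5 exons, starts downstream of Asph-202 and ends before the exons of the catalytic part, as junctin does. The coding bases of the first exons (chr4:9668781-9668910 and chr4:9643535-9643550) and the last coding bases (chr4:9453295-9453414 and chr4:9621880-9621999) follow, written along the minus strand, with start and stop codons in capitals.
Asph-202, first exon: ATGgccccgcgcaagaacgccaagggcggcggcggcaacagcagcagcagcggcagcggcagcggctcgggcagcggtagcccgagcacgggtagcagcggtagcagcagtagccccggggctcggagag
Asph-206, first exon: ATGgctgaagataaag
Asph-202, end of exon 24: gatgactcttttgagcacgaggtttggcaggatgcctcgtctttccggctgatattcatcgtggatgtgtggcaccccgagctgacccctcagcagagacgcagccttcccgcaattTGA
Asph-206, end of exon 5: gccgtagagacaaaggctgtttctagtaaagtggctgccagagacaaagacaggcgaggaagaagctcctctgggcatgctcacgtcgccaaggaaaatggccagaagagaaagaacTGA

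Replicate 1 held 40403041 and replicate 2 held 39849597 expected counts, with 23.8% and 22.5% of the counts of annotated genes in mitochondrial genes. Levels are in TPM, a relative abundance corrected for transcript length and scaled to a fixed total. They come from the RSEM-style gene table unless the kallisto-style table is named, which was deposited for the same libraries. Over 11883 detected protein-coding genes, kallisto-style TPM stood a median log2 of 0.32 above RSEM-style TPM. Heart muscle markers were high in both libraries, with all 9 at 1 TPM or more and a summed level of 24233 and 26378 TPM. Libraries differed in markers of other cells: 5 of 5 blood genes were called higher in replicate 2 (summed level 5269 and 12984 TPM), 5 of 5 fat cell genes were called lower (64.5 and 10.1 TPM), and 6 of 6 atrial genes were higher, with 1 called (525 and 963 TPM). In bulk tissue, fewer cells of a type and less RNA per cell cannot be told apart.

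Of the 10 genes, 8 reached 1 TPM in both libraries, or 9 by the kallisto-style table, where Ryr3 stood at 1.09 and 1.31 TPM. The set fell into 6 genes above 100 TPM and 4 below 10 TPM. The 6 abundant genes were those used by heart muscle and held 99.2% of the summed level of the set in each library. Casq2 ranked 122nd and Ryr2 190th by mean TPM among the protein-coding genes, within the top 0.554% and 0.863%, and Asph, the lowest of the 6, was still within the top 2.68%. The highest of these 6 was 4.15-fold above the lowest, while the other 4 lay at 6.46, 3.58, 0.870 and 0.030 TPM. By reads the balance was different, since Ryr2 is very long: it took 62.3% and 64.5% of the counts of the set, which together made up 0.525% and 0.583% of all counts of annotated genes.

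**Figure D1:**
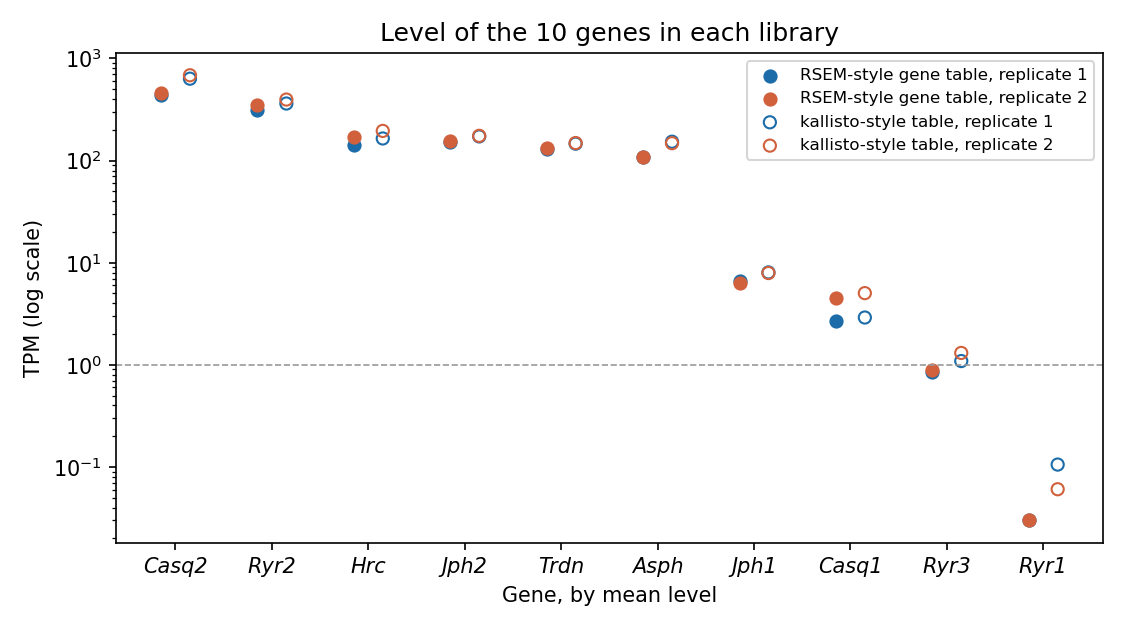
Level of each of the 10 genes in TPM (log axis) by library and method, ordered by mean level; filled points are the RSEM-style and open points the kallisto-style table, and the dashed line is 1 TPM. The 6 genes on the left lie above 100 TPM in every library and method, and Ryr1 on the right stays near 0.03 to 0.11 TPM.

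Among the release channels, the heart carried almost only Ryr2, the cardiac ryanodine receptor (chr13:11553102-12106945). Its level was 312 TPM in replicate 1 against 349 in replicate 2, a mean of 330.5 ± 26.4 (SD, n = 2). Ryr3, a receptor found at low level in many tissues including brain and smooth muscle (chr2:112631355-113217096), stood at 0.850 and 0.890 TPM. Ryr1, the receptor of skeletal muscle (chr7:29003344-29125179), was at 0.030 TPM in both libraries from 5 and 7 counts. Exact 95% Poisson intervals, which cover counting error only, were 1.62 to 11.7 counts for replicate 1 and 2.81 to 14.4 for replicate 2.

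The gap between the receptors was far wider than the spread of the libraries. Within each library, the log2 ratio of Ryr1 to Ryr2 (on TPM + 0.1) averaged −11.31 ± 0.12 (SD, n = 2), and that of Ryr3 to Ryr2 −8.41 ± 0.07. Ratios are called apart here when both libraries share the sign and the mean exceeds 3 SD, since 2 libraries allow no exact p below 0.5, and both ratios were apart. The size of the first depends on the pseudocount, at −8.33 with 1 and −13.01 with 0.01. The narrow spread of the second holds on TPM only. On CPM, which is scaled to library size but not to length, the log2 ratio of Ryr3 to Ryr2 was −10.13 ± 0.68 (SD, n = 2). The counts of Ryr3 differed between the libraries, and the effective length used for the gene shifted with them, as given below. Ryr3 exceeded Ryr1 by 7.46-fold on TPM + 0.1, where the pseudocount is larger than the level of Ryr1 itself. The log2 ratio of Ryr1 to Ryr3 ran from −0.86 with a pseudocount of 1 to −4.46 with 0.01. On CPM it was −3.65 ± 0.61.

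Of the TPM of Ryr3, 62.2% and 48.7% lay in a 430 nt transcript annotated as a retained intron, a share that rests on 5.50 and 4.42 expected counts. The full-length coding transcripts held 16.4% and 40.5% of TPM (0.140 and 0.360 TPM) and took 82.4% and 94.0% of the gene's counts. For Ryr2, the coding transcript of 105 exons held 76.7% and 79.8% of TPM, and a shorter coding transcript (25 exons from the same start) 7.55% and 7.08%, or 3.31% and 3.14% by the kallisto-style table. Retained introns of Ryr2 made 12.07% of its mean TPM but 1.44% of its counts, as those transcripts are short.

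Of the junctophilins, Jph2, the cardiac member (chr2:163336242-163397993), stood at 152 and 157 TPM, a mean of 155 ± 3.20 (SD, n = 2). Jph1, the main junctophilin of skeletal muscle (chr1:16964560-17097889), was at 6.60 and 6.31 TPM from 973 and 913 counts, so it was low but well measured. The log2 ratio of Jph1 to Jph2 was −4.56 ± 0.08, with Jph2 23.6-fold higher. Both genes were read as 1 transcript each: the leading transcript held 99.8% and 99.4% of Jph2, and 100% of Jph1 in both libraries.

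Of the anchors, Trdn stood at 128 and 131 TPM and Asph at 107 and 109 TPM, with means of 130 ± 2.07 and 108 ± 0.98 (SD, n = 2). These were the closest repeats among the abundant genes. The short triadin Trdn-202 (9 exons, 879 coding nt) was the leading transcript by TPM, with 53.1% of the gene's TPM in replicate 1 and 52.6% in replicate 2. The full-length Trdn-201 (38 exons) held 7.01% and 6.79%, so Trdn-202 was 7.58-fold and 7.74-fold above it. The other short form, Trdn-208, held 6.94% and 6.79%, and Trdn-206, whose annotated coding part is incomplete, 5.82% and 6.44%. By the kallisto-style table Trdn-202 held 48.4% and 50.01%, Trdn-208 held 16.3% and 15.6%, and Trdn-202 was 5.29-fold and 5.72-fold above Trdn-201. Of the kallisto-style counts, however, Trdn-208 took the most, 35.9% and 35.2%, against 23.7% and 25.1% for Trdn-202. Counts are not corrected for length, and Trdn-208 has 4149 nt against 1182 nt for Trdn-202. Its first exon is longer and starts upstream, at chr10:33080554 against chr10:33083540.

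The remaining triadin RNA was assigned to Trdn-204, a single exon annotated as a retained intron (chr10:33198705-33200369). It held 26.6% and 26.2% of TPM, or 34.1 and 34.4 TPM, and 25.3% of the counts in each library. Of its 1665 bases, 1458 lie before exon 9 and 207 overlap the exon 9 of Trdn-202 shown above, so reads there can be shared between the 2 transcripts. Among 4046 protein-coding genes at 10 TPM or more with an annotated retained intron, the median share was 5.19% of TPM and the third quartile 14.1%. The share of Trdn, 26.4% on average, was thus above the upper quartile; this is a description and not a test.

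**Figure D2:**
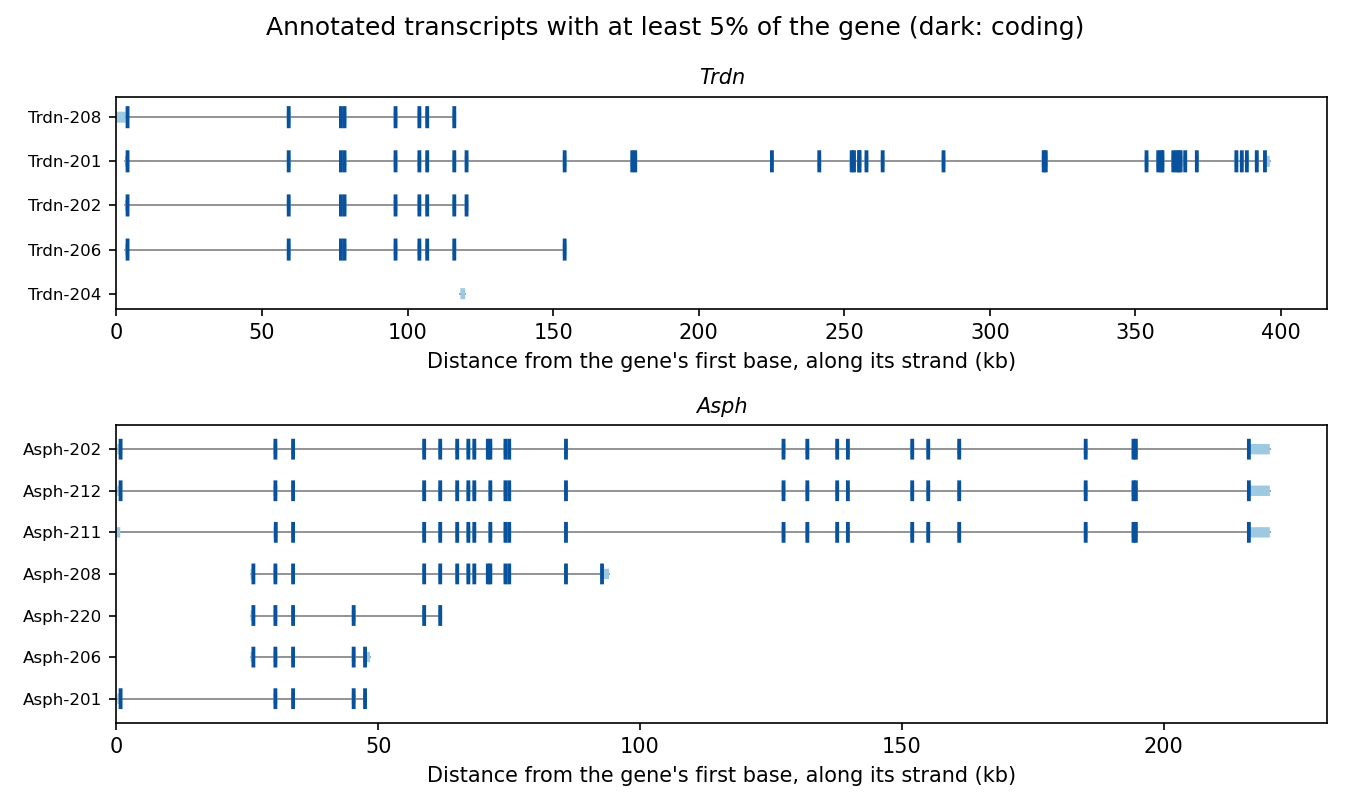
Exons of the transcripts that held at least 5% of Trdn or Asph in any library by either method, against distance in kb from the first base of the gene; dark blocks are coding, pale blocks are not, and narrow exons are widened to be visible. The short forms of Trdn share early exons with the full-length form and stop in the first part of the gene, Asph-206 starts downstream of Asph-202 and ends well before it, and Trdn-204 lies just at the last exon of Trdn-202.

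For Asph, the junctin-type transcript Asph-206 led with 33.0% of TPM in both libraries. Together with Asph-201, which has the same last coding exon but the upstream start, forms of 5 exons held 40.2% and 43.3%, forms of 12 to 14 exons (led by Asph-208) 25.2% and 24.8%, and full-length forms 14.5% and 14.6%. Asph-206 and Asph-201 together were 2.78-fold and 2.97-fold above the full-length forms by the RSEM-style table, and 3.89-fold and 4.18-fold by the kallisto-style table. Because they are long, the full-length forms took 38.7% and 39.2% of the counts of Asph. Transcripts from the downstream start held 73.8% and 72.3% of TPM by the RSEM-style table but 62.3% and 56.6% by the kallisto-style table, so their ratio to those from the upstream start fell from 2.94 and 2.67 to 1.71 and 1.31.

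Single transcripts of Asph also differed between the methods. Asph-201 stood at 7.67 and 11.2 TPM by the RSEM-style table and at 28.9 and 39.4 TPM by the kallisto-style table. Among the full-length forms, Asph-212 held 6.89 and 3.26 TPM by the first and under 0.001 TPM by the second, while Asph-211 held 0.010 and 2.96 TPM by the first and 9.57 and 11.2 TPM by the second. The sum over the full-length forms moved less, from 14.5% and 14.6% to 12.7% and 13.1%.

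**Figure D3:**
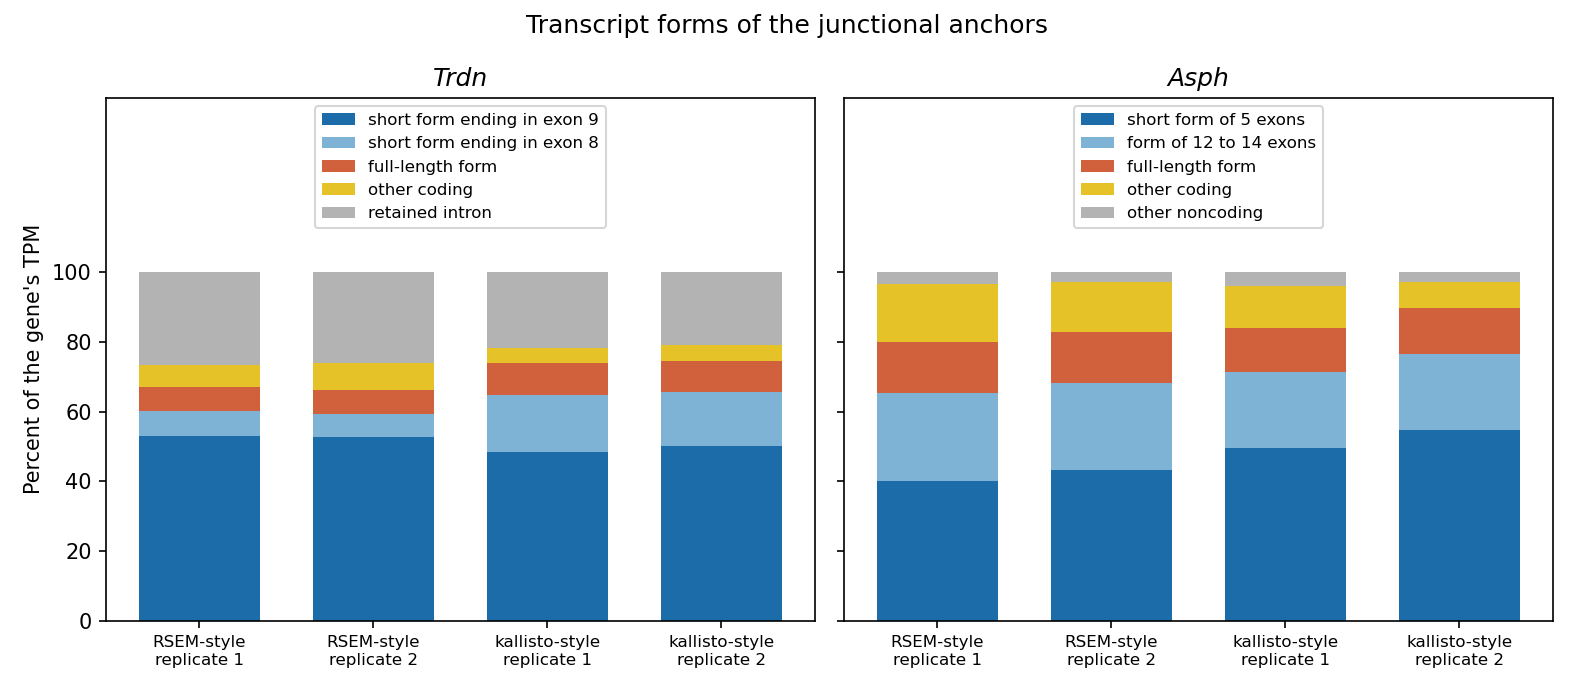
Percent of the TPM of Trdn and Asph in each class of transcripts, by library and method (stacked bars). The short form ending in exon 9 held 48.4% to 53.1% of Trdn. The short form of 5 exons (here Asph-206 and Asph-201 only) held 40.2% to 54.8% of Asph. Full-length forms held 6.79% to 9.15% of Trdn and 12.7% to 14.6% of Asph.

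Of the luminal binders, Casq2, cardiac calsequestrin (chr3:102086415-102146514), was the most abundant of the set, at 440 and 457 TPM with a mean of 449 ± 11.98 (SD, n = 2). Hrc, the histidine-rich calcium-binding protein that binds triadin inside the store (chr7:45335290-45338974), stood at 142 and 169 TPM, a mean of 155 ± 19.3. Casq1, the skeletal calsequestrin (chr1:172209894-172219868), stood at 2.66 and 4.50 TPM. The log2 ratio of Casq1 to Casq2 was −6.98 ± 0.48, with Casq2 126-fold higher. Hrc-201 held 98.9% and 99.3% of Hrc. The coding transcript of 11 exons held 99.3% and 99.7% of Casq2 by the RSEM-style table but 78.1% and 74.2% by the kallisto-style table, which gave 133 and 145 TPM to a 628 nt noncoding transcript at 0 TPM in the other.

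In the order Casq2, Ryr2, Hrc, Jph2, Trdn, Asph, Jph1, Casq1, Ryr3, Ryr1, 7 of the 9 neighbouring pairs were apart. Hrc and Jph2 did not differ beyond their spread (mean log2 ratio 0.0022 ± 0.15), nor did Jph1 and Casq1 (0.88 ± 0.57). Trdn was above Asph by 1.20-fold in the RSEM-style table, but the kallisto-style table gave a log2 ratio of −0.029 ± 0.05, which was not apart. Relative to Ryr2, the RNA of Jph2 stood 2.13-fold lower, Hrc 2.13-fold lower, Trdn 2.54-fold lower and Asph 3.05-fold lower, while Casq2 was 1.36-fold higher. These are ratios of RNA and not of protein.

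The difference between the 2 libraries was small for most of the set. An exact conditional binomial test on expected counts, Benjamini-Hochberg adjusted over 16517 genes, called a gene when its adjusted p was under 0.05 with a difference of 2-fold or more. Of the 9 genes with enough counts (Ryr1 was too low), 1 was called, Ryr3, against 1.28% of all genes tested. The median log2 ratio of replicate 2 over replicate 1 was 0.065 over the 9 genes and −0.00046 over all genes tested, with 8 of the 9 higher in replicate 2. The adjusted p-values cover counting error only and leave out the spread between animals, which 1 library an animal cannot give, so a call says that these libraries differ.

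Ryr3 had 80 counts in replicate 1 and 181 in replicate 2, a 2.31-fold difference (log2 1.21, counting SE 0.19, adjusted p = 2.66e-09 by the exact binomial test). The kallisto-style counts, 95 and 201, gave 2.17-fold. Its gene-level TPM hardly moved because the effective length used for the gene went from 2999 to 6597 nt as more of the reads were assigned to full-length transcripts. Casq1 had 129 and 202 counts, a 1.60-fold difference (log2 0.68, counting SE 0.16) that is below the fold limit, with an adjusted p of 0.00033 by the exact binomial test.

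With at least 1.5-fold in place of 2-fold, 2 of the 9 genes were called, Ryr3 and Casq1, against 2.76% of all genes. With no fold limit 6 were called, against 17.3% of all genes: Ryr2 (1.16-fold higher in replicate 2), Hrc (1.20-fold), Jph2 (1.04-fold) and Casq2 (1.05-fold) joined them. Jph1, Trdn and Asph did not pass (0.963-fold, 1.017-fold and 1.008-fold). At the counts of Jph2, 19603 and 19792, a ratio of 1.04 can pass such a test, so the fold beside it matters more than the p.

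**Figure D4:**
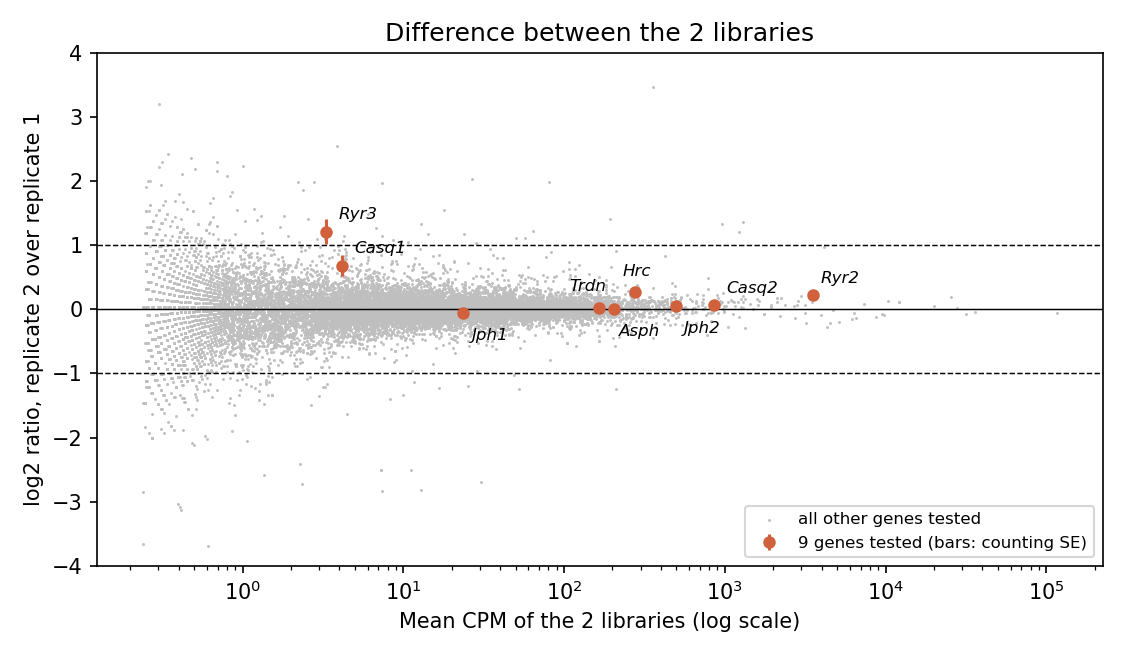
log2 ratio of replicate 2 over replicate 1 against mean CPM (log axis) for all genes tested (grey; 30 lie outside the plotted range of 4) and for 9 genes of the release unit (orange, with counting SE); dashed lines mark 2-fold. Ryr3 alone of the 9 lies above the upper line, at 1.21, and the 6 abundant genes lie between 0.012 and 0.27.

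Markers of other muscle cells and of nerve cells stood as follows beside the low genes. Of 12 skeletal muscle markers, 1 reached 1 TPM in both libraries; the summed level was 11.6 and 11.5 TPM, of which Mybpc2 gave 8.96 and 8.06, and Myod1 was at 0 in both. None of the 4 that could be tested was called, and 2 of these 4 were higher in replicate 2. The fast troponins went opposite ways, with Tnni2 at 0.75 and 1.59 TPM and Tnnt3 at 0.72 and 0.19 TPM. The part of skeletal, smooth muscle or atrial cells in the Casq1 and Ryr3 differences was not tested. The atrial markers were higher in replicate 2 as given above. Of the nerve cell markers, Th was at 0 in both libraries and Snap25, a synaptic protein named after its values were seen, at 0.030 and 0.020 TPM. Smooth muscle markers summed to 340 and 375 TPM, and none was called. By the log2 ratio of scaled counts 6 of 6 were higher in replicate 2, but Smtn (0.0096) and Cnn1 (0.026) were near 0. The widest difference was that of Lmod1, at 81 and 128 counts (1.62-fold, adjusted p = 0.0065 by the exact binomial test). Myh11 was 1.18-fold, Acta2 1.16-fold and Tagln 1.07-fold higher. By TPM, Smtn was lower in replicate 2 (86.6 and 85.2).

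Other annotated genes overlap members of the set. The antisense gene D830005E20Rik, inside Trdn, had 697 and 579 counts (14.1 and 11.8 TPM), and Gm47493, on the strand of Ryr2 inside that gene, had 692 and 560. Whether the counting used strand is not given in the sources used here, so reads of Trdn and D830005E20Rik may not be told apart where they overlap. Aven, on the opposite strand at the far end of Ryr3, had 285 and 287 counts (6.36 and 6.71 TPM), more than Ryr3 itself, so the same limit holds for Ryr3 where the 2 genes overlap. Of all runs of 31 bases in the transcripts of each gene, at most 1.16% (Hrc) also occurred in another gene, and none did for Ryr3, Casq1 or Casq2. Ryr1 and Ryr2 shared 5 such runs, as did Jph1 and Jph2.

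The partner genes of the release unit were read from 6 lists with 52 genes, of which 43 reached 1 TPM in both libraries. None of the 47 tested was called at 2-fold by the exact binomial test on either count table, against 1.28% of all genes. With no fold limit 19 of the 47 had an adjusted p under 0.05 by that test, a higher share than the 17.3% of all genes. Their differences were small, with a median absolute log2 ratio of 0.112 over the 47 and 0.121 over all genes tested. Over the 13053 tested genes with a mean of at least 1 TPM it was lower, at 0.0997. The cause of the higher share was not tested. All 14 regulators of the ryanodine receptor were detected, led by the phosphatase subunit Ppp1ca (183 and 190 TPM), the kinase subunit Prkaca (173 and 177), S100a1, a calcium sensor (168 and 191), and Fkbp1a, an immunophilin that binds the receptor (152 and 155). Fkbp1b, the immunophilin best known as a partner of Ryr2 and named here after its values were seen, was at 1.46 and 1.04 TPM. Ryr2 was 2.05-fold and 2.25-fold above Fkbp1a.

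At the surface membrane, 5 of 6 genes of calcium entry and exchange were detected. The exchanger Slc8a1 stood at 260.0 and 247 TPM and the pore of the cardiac L-type channel, Cacna1c, at 83.5 and 84.3 TPM, so that Ryr2 was 3.74-fold and 4.14-fold above the channel that triggers it. Cacnb2 (30.2 and 28.0 TPM) and Cacna2d1 (28.3 and 29.02 TPM), subunits of the same channel, were lower still. Of 7 skeletal triad genes, 2 were detected: Trim72, a membrane repair gene (64.1 and 79.6 TPM), and Cacnb1 (3.22 and 2.90 TPM). Cacna1s, the skeletal L-type channel, was at 0.380 and 0.520 TPM.

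Of 13 genes of dyad architecture, 11 were detected. Tcap, a titin cap protein (202 and 237 TPM), Tmem38a, a reticulum cation channel (113 and 131), and Ank2, an ankyrin (117 and 112), were among the highest. The junctophilins of the nervous system, named after their values were seen, were at or near 0: Jph3 had 0 counts in both libraries, which allows up to 3 counts or 0.0742 and 0.0762 CPM, and Jph4 was at 0.060 and 0.10 TPM.

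In the store itself, 8 of 9 genes were detected. The pump Atp2a2 stood at 3206 and 3494 TPM, 10.28-fold and 10.01-fold above Ryr2, and its inhibitor Pln at 2067 and 1900 TPM. Calumenin (Calu, 142 and 141 TPM) and calreticulin (Calr, 134 and 127 TPM) also bind calcium in the reticulum, and Casq2 was 3.28-fold and 3.61-fold above Calr. All 3 inositol trisphosphate receptors, the other family of release channels, were detected, led by Itpr1 (26.7 and 27.3 TPM), above which Ryr2 stood 11.7-fold and 12.8-fold, with Itpr2 at 12.69 and 12.71 TPM and Itpr3 at 3.24 and 3.48 TPM.

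**Figure D5:**
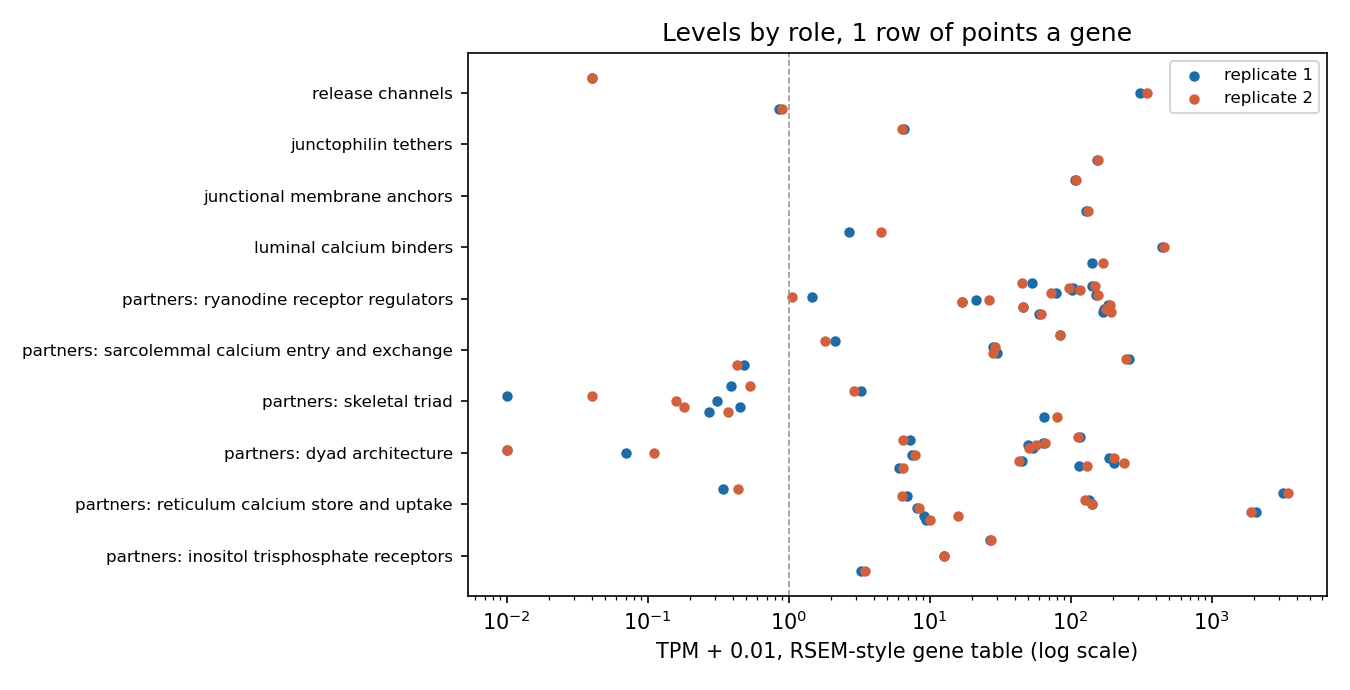
TPM + 0.01 (log axis) of each gene of the release unit and of the 6 partner lists, by role, in replicate 1 (blue) and replicate 2 (orange); the dashed line marks 1 TPM. In the skeletal triad list, 2 of 7 genes lie right of the line in both libraries, against 14 of 14 receptor regulators.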

How the data were processed

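Total RNA from 2 hearts was sequenced, 1 library each. The authors deposited, per library, a gene and a transcript table with expected counts (reads that fit several features are shared), TPM and, per transcript, the percent of the gene's TPM, made on mm10 with GENCODE M21; the column headers are those RSEM writes. A further deposited table holds estimated counts and TPM under headers that kallisto writes. Tools and versions: not given in the sources used here. Reads of the CAST/EiJ genome were assigned on mm10, a C57BL/6J reference, so some may be lost in both libraries.

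Expected counts were rounded and compared by an exact conditional binomial test (two-sided) with TMM library sizes (edgeR 4.0.16, R 4.3.3), over genes whose counts summed to 20 or more and with a prior count of 0.5 in fold changes. The edgeR quasi-likelihood test needs replicates in 2 groups and was not run. The test was checked on simulated data with and without spread between animals, and holds its error rate only without it. DESeq2 1.42.0 size factors were an alternative. Entries that name no gene (3.84 and 2.92 counts) and spike-ins were left out. Detection meant 1 TPM in both libraries; log2 ratios used TPM + 0.1.

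All 10 genes are named, partner genes where called or among the 4 highest of a list, and transcripts from 5% of a gene; some listed genes are not reported here. The genes, lists and tests were chosen with earlier results of these data known. Sequences come from the GENCODE M21 transcripts. Protein sequences were not used here. Python 3.11.15, pandas 2.3.3 and scipy 1.17.1 were used.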

Additional observations from a re-analysis of the deposited data

How the results depend on the processing

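Levels, orders and ratios were recomputed with the kallisto-style table, other pseudocounts, values not scaled by length and each library alone, and the library differences with other size factors, no filter and other fold limits. Ryr3 remained the gene of the set called at 2-fold under each scaling, filter and count table. The count of genes called was 2 at 1.5-fold and 6 with no fold limit, both with TMM library sizes. With no fold limit, Jph2 did not pass with total counts (adjusted p = 0.091 by the exact binomial test). With total counts without mitochondrial genes, neither Jph2 (adjusted p = 0.76) nor Casq2 (adjusted p = 0.14) passed that test. On CPM, not scaled by length, the log2 ratio of Casq2 to Ryr2 turned to −2.04, and by the kallisto-style TPM that of Trdn to Asph turned to −0.029. Uncalled library differences near 0 changed sign: Asph to −0.00496 with total counts, −0.0298 with total counts without mitochondrial genes and −0.00520 with kallisto-style counts, and Trdn to −0.017 without mitochondrial genes. Isoform shares moved with the unit and the method. Trdn-202 held 49.2% by the kallisto-style table, 35.1% of RSEM-style counts and 71.7% of coding transcripts. Asph-206 held 29.3%, 22.5% and 34.1%. The leading transcript of Ryr2 held 95.6% of counts and 89.1% of coding transcripts, and that of Casq2 held 76.1% by the kallisto-style table. The cause of these method differences was not tested. No paired analysis was possible because the labels give a single group. Ryr1, at 5 and 7 counts, was too low for a comparison of the libraries.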
